A study of Mus musculus with 10 samples.

Results

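The 10 genes described here encode dual-specificity phosphatases of the MAP kinases (Dusp1, Dusp4, Dusp5, Dusp6, Dusp8, Dusp10 and Dusp16), the Sprouty proteins Spry2 and Spry4, and the Sprouty-related protein Spred1. They were picked by symbol, with the low Dusp5 and Dusp1 values of the knockout columns as the reason, and all 10 were found among the 17945 named genes of the table. The difference between the groups therefore chose the members, and their values in that comparison are a description with no test. All 10 also passed the filter on low values, which asks for 10 normalized counts (read counts that the authors scaled between libraries) or more in no fewer than 5 libraries. For Dusp5 and Dusp1 the control libraries alone would have met that filter.

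The libraries were made from pancreatic islets of C57BL/6 mice aged 18 weeks. The 5 knockout libraries came from animals with Pdx1-CreER and floxed Grk5 alleles (Pdx1-CreER; Grk5 flox/flox), and the 5 control libraries from animals with the floxed alleles alone (Grk5 flox/flox). The driver follows the Pdx1 promoter, which is active in β cells and in some other pancreatic cells. By their labels the controls carry no Cre, which the Esr1 values given further on do not bear out for 2 of them, so an effect of CreER itself and an effect of the floxed deletion cannot be told apart. Knockout and control mean the libraries so labelled. No label ties a library to its own animal, so the spread between libraries may be partly technical.

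ERK is the last kinase of the Ras, Raf, MEK and ERK relay, which growth factor receptors and, in β cells, glucose and calcium entry switch on. Its activity induces genes that then turn it off. Inducible phosphatases remove phosphate from ERK in the nucleus (Dusp5, Dusp4, Dusp1) or in the cytoplasm (Dusp6), while Sprouty and Spred proteins act upstream, between the receptor and Raf. Dusp8, Dusp10 and Dusp16 act mainly on the related stress kinases JNK and p38. Transcripts of such feedback genes are short-lived and are often read as a record of recent signalling.

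The stretches before the start sites of the 3 phosphatase genes with the lowest knockout values relative to controls among those with high counts, Dusp5, Dusp1 and Dusp8, are shown first, because 2 kinds of response element lie in them. Each is the 250 bases before the RefSeq start on GRCm38.p6, written along the gene's own strand. Capitals mark the cAMP response element TGACGTCA, its part TGACG on either strand, and the CArG box, the element that the serum response factor Srf binds.
Dusp5, chr19:53528895-53529144, plus strand: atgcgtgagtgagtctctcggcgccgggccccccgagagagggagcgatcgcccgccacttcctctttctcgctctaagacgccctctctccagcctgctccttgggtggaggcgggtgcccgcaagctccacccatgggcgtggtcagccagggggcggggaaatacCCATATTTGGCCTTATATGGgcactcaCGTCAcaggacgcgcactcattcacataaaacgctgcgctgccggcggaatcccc
Dusp1, chr17:26508473-26508722, minus strand: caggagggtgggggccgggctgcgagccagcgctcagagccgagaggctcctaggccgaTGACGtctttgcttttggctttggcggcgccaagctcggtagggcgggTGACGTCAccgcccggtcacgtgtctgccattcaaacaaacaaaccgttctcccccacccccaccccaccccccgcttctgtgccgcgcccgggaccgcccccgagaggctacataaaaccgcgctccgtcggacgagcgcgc
Dusp8, chr7:142095285-142095534, minus strand: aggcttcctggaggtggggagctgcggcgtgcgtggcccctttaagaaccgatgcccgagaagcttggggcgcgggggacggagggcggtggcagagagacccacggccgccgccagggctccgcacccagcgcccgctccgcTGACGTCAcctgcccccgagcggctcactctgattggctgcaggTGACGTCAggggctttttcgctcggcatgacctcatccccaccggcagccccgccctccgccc

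The Dusp5 stretch held 2 CArG boxes side by side, the first from 82 to 73 and the other from 72 to 63 bases before the start. A CArG box was in 1.47% of the 32851 promoter windows of the same length, on either strand, and among the members in Dusp5 alone. The Dusp1 stretch held TGACGTCA from 143 to 136 bases before the start, and Dusp8 held it at 107 to 100 and again at 63 to 56 bases. TGACGTCA occurred in 1.55% of all windows. The shorter TGACG, which every TGACGTCA also contains on both strands, was in 17.8% of windows and in those of Dusp1, Dusp5, Dusp8 and Dusp16. The AP-1 element TGANTCA, found in 6.75% of windows, was in none of the 8 members matched to the promoter table, which lacks Dusp4 and Spry4. In GENCODE M21 on GRCm38 the genes themselves span chr19:53529109-53542431 (Dusp5), chr17:26505590-26562128 (Dusp1) and chr7:142079490-142095843 (Dusp8). These motifs were chosen with the expression values known, and a match is a description of letters, not of binding.

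Across the 10 libraries, Grk5 was 269.8, 129.9, 94.4, 207.0 and 105.5 in knockouts 1 to 5 and 197.0, 165.0, 386.9, 331.8 and 127.9 in controls 1 to 5, so the targeted gene overlapped between the groups. The estrogen receptor gene Esr1, from which CreER takes its hormone-binding part, was 1516.7 to 3176.8 in the knockouts and 0.0 to 10.5 in 3 of the controls. Control 2, at 2495.0, and control 5, at 773.5, went against their labels. These were also the 2 lowest controls for Grk5, though knockouts 1 and 4 lay above control 1 as well. The log2 difference of each of the 10 genes is therefore also given without controls 2 and 5. By an estimate from their low values the libraries held 2072863 reads (knockout 1) to 10951875 reads (knockout 3). Controls 2, 3 and 5 had other steps among their low values, which makes that estimate less sure for them. Knockouts 1, 2 and 4, at 2072863, 3961339 and 2715703 reads, were shallower than every control (4712070 or more). They also held the lowest Dusp5 and Dusp1 values of all libraries and, among the knockouts, the highest Dusp4 values. The part of depth in the differences between the groups was not tested. The β cell hormone gene Ins2 averaged 637300 normalized counts in knockouts and 639100 in controls, and all 10 markers of β cells were above 0 in every library. All 10 had a log2 difference, knockout minus control, below 0, against 52.4% of all genes tested. Their median was -0.21, against -0.03 over all genes tested, with Ins2 the nearest to 0. None of the 10 had an adjusted p under 0.05 by limma.

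Normalized counts can be compared between libraries but not between genes of different length. Dusp5, the ERK-specific phosphatase of the nucleus, had 457.9, 442.9, 620.7, 578.7 and 684.8 normalized counts in knockouts 1 to 5, against 902.9, 1002.2, 1267.4, 1124.0 and 1279.5 in controls 1 to 5. The groups did not overlap: the highest knockout, 684.8, lay under the lowest control, 902.9. The means were 557 ± 105 in knockouts and 1115 ± 164 in controls (SD, n = 5 each). On the log2(value + 8) scale the difference, knockout minus control, was -0.999 ± 0.22 (SE). It was -0.98 without controls 2 and 5, and ran from -1.08 to -0.87 over 20 alternatives. Dusp5 was the single member of 10 with every knockout below every control, against 0.427% of the 11711 genes tested, and it had been chosen for this. An antisense RNA gene shares 547 exonic bases with Dusp5, and the sources used here do not state if the counting used strand.

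Dusp1, the immediate early phosphatase that acts on p38, JNK and ERK, had 112.3, 122.9, 295.2, 150.6 and 524.8 normalized counts in knockouts 1 to 5, against 538.9, 363.0, 422.4, 558.5 and 408.6 in controls 1 to 5. Knockout 5 lay among the controls, and the other 4 knockouts lay below all of them. The means were 241 ± 175 in knockouts and 458 ± 85.7 in controls (SD, n = 5 each), a log2 difference of -1.14 ± 0.39 (SE). Without knockout 5 the difference was -1.47, and without controls 2 and 5 it was -1.29. With the acinar marker level as a covariate it was -0.89. The knockouts varied more than the controls: their values spanned 112.3 to 524.8, and those of the controls 363.0 to 558.5.

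Dusp4, a nuclear phosphatase of ERK and JNK that is related to Dusp1, had a higher mean in knockouts. It had 493.4, 280.8, 188.3, 359.9 and 211.0 normalized counts in knockouts, against 176.8, 363.9, 92.0, 193.9 and 212.8 in controls. The groups overlapped, with knockout 1 the highest of all libraries and control 3 the lowest. The log2 difference was 0.58 ± 0.40 (SE), between 0.23 with the acinar covariate and 0.93 without controls 2 and 5.

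Dusp6, the cytoplasmic counterpart of Dusp5 in its choice of ERK, was low. It was listed at 0, 0, 98.1, 61.2 and 101.3 in knockouts 1 to 5, and at 0, 55.7, 77.6, 71.7 and 126.6 in controls 1 to 5. The 3 zeros were in both groups, and the remaining values overlapped. By the estimate from low values, the Dusp6 values above 0 stood for 26 to 186 reads. The log2 difference was -0.64 ± 0.94 (SE), but -1.33 without control 1, -0.12 without controls 2 and 5, and 0.46 without controls 2, 3 and 5, so these libraries gave it no stable direction.

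**Figure D1:**
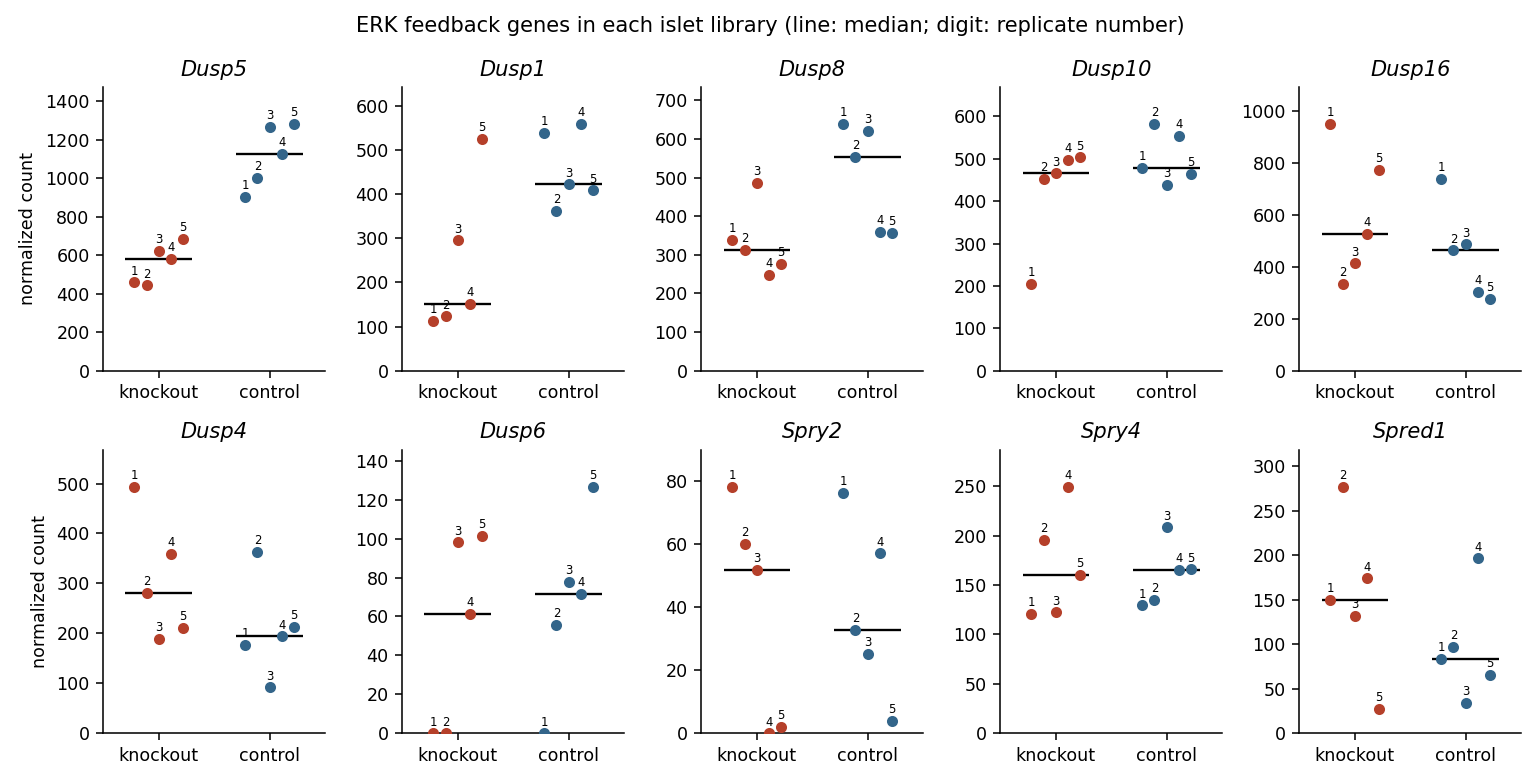
Normalized count (vertical axis, linear from 0) of each gene in the 5 knockout libraries (left, red) and the 5 control libraries (right, blue), 1 point per library with its replicate number and a line at the median. Dusp5 was at most 684.8 in knockouts and at least 902.9 in controls, while the other 9 genes overlapped between the groups.

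Of the phosphatases of the stress kinases, Dusp8 had 338.8, 313.1, 485.5, 249.0 and 275.8 normalized counts in knockouts, against 638.3, 552.8, 620.4, 358.5 and 357.4 in controls. Knockout 3 lay above controls 4 and 5, and the other 4 knockouts lay below every control. The log2 difference was -0.59 ± 0.30 (SE), and -0.68 without controls 2 and 5. Dusp10, which inactivates JNK and p38, had 204.1, 452.9, 465.3, 496.8 and 503.2 in knockouts, against 477.5, 581.4, 438.1, 553.1 and 463.4 in controls. Knockout 1, the shallowest library, stood apart from the others, and the log2 difference of -0.30 ± 0.29 (SE) was -0.06 without it and -0.26 without controls 2 and 5. Dusp16, a JNK phosphatase that shuttles between nucleus and cytoplasm, had 948.3, 333.3, 412.9, 527.3 and 772.5 in knockouts, against 739.3, 462.8, 486.4, 304.0 and 277.6 in controls. The 2 highest values were knockouts and the 2 lowest were controls, with the rest mixed, and the log2 difference was 0.38 ± 0.34 (SE), 0.21 without controls 2 and 5, and 0.13 with the acinar covariate.

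The inhibitors upstream of Raf showed no common direction. Spry4, which blocks receptor signals to Ras and Raf, had 120.7, 195.6, 122.3, 249.4 and 160.4 normalized counts in knockouts, against 129.4, 135.2, 208.4, 165.4 and 165.8 in controls. Its log2 difference was 0.04 ± 0.38 (SE), and the sign turned in 6 of 20 alternatives, among them -0.01 without controls 2 and 5. Spry2, which acts at the same step, was listed at 78.1, 60.1, 51.7, 0 and 2.1 in knockouts and at 76.2, 32.8, 25.1, 57.0 and 3.9 in controls. Both groups had libraries near 0, and the log2 difference of -0.33 ± 0.83 (SE) was 0.16 without knockout 4, 0.08 without knockout 5, -0.87 without controls 2 and 5, and -1.26 without controls 2, 3 and 5. Spred1, which brings the Ras inactivator neurofibromin to the membrane, had 150.1, 277.1, 132.4, 174.1 and 27.7 in knockouts, against 83.5, 97.2, 34.2, 196.7 and 65.6 in controls. Knockout 5 was the lowest and knockout 2 the highest of the 10 libraries. The log2 difference was 0.55 ± 0.59 (SE), 1.02 without knockout 5, 0.52 without controls 2 and 5, and -0.04 without controls 2, 3 and 5.

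Taken as a list, 6 of the 10 genes had a log2 difference below 0, against 52.4% of the 11711 genes tested. The count was between 5 and 7 in each of the 20 alternatives, and 7 without controls 2 and 5. The median of the 10 log2 differences was -0.31, against -0.03 over all genes tested. A log2 difference of -0.5 or lower was reached by Dusp1, Dusp5, Dusp6 and Dusp8, 4 of 10, against 20.4% of all genes tested. A difference of 0.5 or higher was reached by Dusp4 and Spred1, 2 of 10, against 16.5%. Dusp5 and Dusp1, for which the list was chosen, are 2 of the 4 at the low end. The authors' deposited table gives log2 fold changes of -0.998 for Dusp5, -0.915 for Dusp1 and -0.603 for Dusp8, and of -0.34 for Dusp6. It calls 1 of the 10, Dusp5, lower at an adjusted p under 0.05, where 0.0431% of its 13931 genes with an adjusted p are called lower. Dusp5 had been chosen for its low knockout values in this same comparison, so that call is no separate evidence. The limma fit called none of the 11711 genes, Dusp5 among them.

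**Figure D2:**
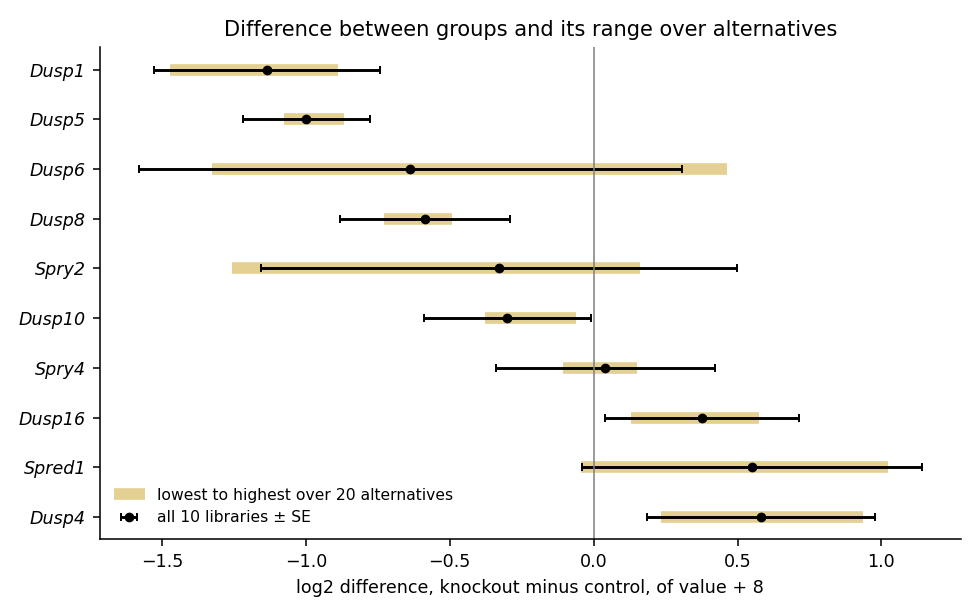
Log2 difference, knockout minus control, of value + 8 (horizontal axis) for each gene, from lowest to highest, as the value over all 10 libraries with its SE (black) and the lowest to highest value over 20 alternatives (yellow). The yellow bars of Dusp6, Spry2, Spry4 and Spred1 cross 0, and those of Dusp1 (-1.47 to -0.89), Dusp5 (-1.08 to -0.87) and Dusp8 (-0.73 to -0.49) do not.

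Levels can be set side by side between genes only per length, here the normalized count per kb of all annotated exons in GENCODE M21. On that scale Dusp5 was the most abundant member, with 225 ± 42.3 per kb in knockouts and 451 ± 66.5 per kb in controls (SD, n = 5 each). It lay above Dusp10, the next in the order, in 10 of 10 libraries, so its level in the knockouts was still the highest of the 10 genes. Dusp10 had 140 ± 41.1 per kb in knockouts and 165 ± 20.2 per kb in controls, and lay above Dusp1 in 9 of 10 libraries. Dusp1 had 72.8 ± 52.8 per kb in knockouts and 138 ± 25.9 per kb in controls. From Dusp1 through Dusp4 and Dusp8 to Dusp16 the order of neighbours changed between libraries, each lying above the next in 6 or 7 of 10. Their order also differed between the groups. Mean levels in knockouts were 112 for Dusp4, 76.8 for Dusp16, 72.8 for Dusp1 and 68.3 for Dusp8 per kb, and in controls 138 for Dusp1, 104 for Dusp8, 75.9 for Dusp4 and 58.2 for Dusp16 per kb. Dusp16 lay above Spry4 in 10 of 10 libraries. The least abundant were Spry4, Dusp6, Spry2 and Spred1, whose mean levels over all libraries were 34.8, 18.9, 18.5 and 18.3 per kb, with the last 3 not separable from each other. The Dusp1 model includes exons of a long upstream transcript, so its level per kb is a low estimate if islets use the short one. The Dusp10 model likewise starts at chr1:184013302, upstream of its promoter window at chr1:184034131-184034380. The same limit holds for Dusp10, to an extent not measured.

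**Figure D3:**
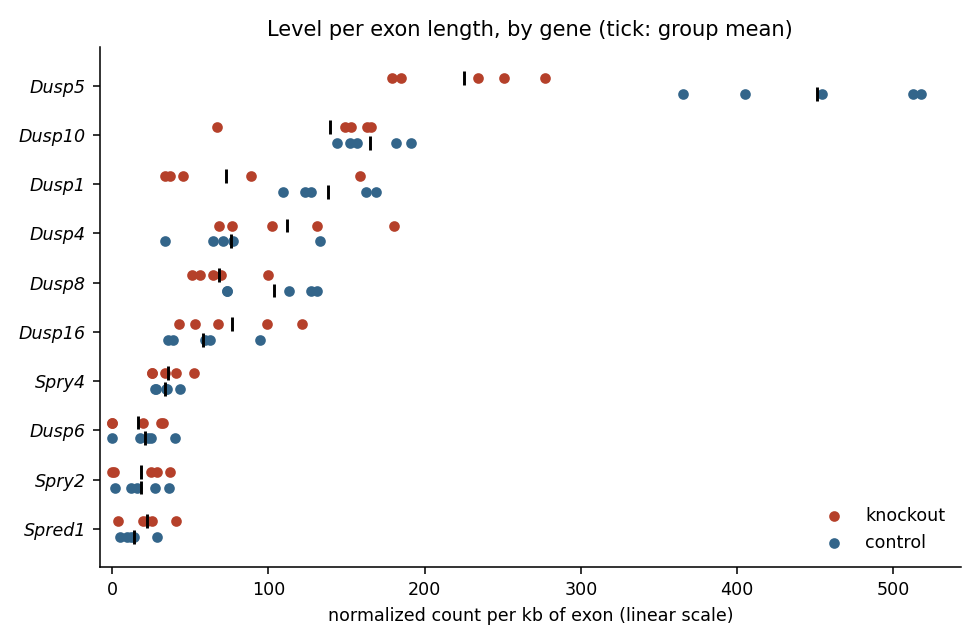
Normalized count per kb of exon (horizontal axis, linear) for each gene, ordered by its mean over all libraries, with knockouts (red, upper row) and controls (blue, lower row) as 1 point per library and a tick at the group mean. Dusp5 averaged 225 per kb in knockouts and 451 per kb in controls, and the 4 genes at the bottom averaged 34.8 per kb or less.

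Variation between libraries of the same group was not used to choose the genes and could be tested. Each gene's log2(value + 8) was set relative to its own group mean, and each of the 45 pairs was compared over the 10 libraries. Dusp5 and Dusp6, the 2 phosphatases selective for ERK, varied together: Pearson's r was 0.930 (adjusted p = 0.00625 over the 45 pairs, exact 2-sided permutation within groups) and Spearman's rho was 0.918 (adjusted p = 0.00625, same exact test). The unadjusted p was 0.0001389 for each, where 14400 arrangements allow 6.94e-05. Among the knockouts, the 2 libraries at 0 for Dusp6 were the 2 lowest for Dusp5, and knockout 5 was the highest for both genes. Among the controls, control 1 was the lowest and control 5 the highest for both.

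The 3 libraries with Dusp6 at 0 stand apart from the other 7, so the relation was also taken over those 7 alone. It was then r = 0.831 (exact permutation p = 0.0625) and rho = 0.964 (exact permutation p = 0.0139), where 144 arrangements allow p = 0.00694. Leaving out the 2 libraries farthest from the median of Dusp5 gave r = 0.881. With single libraries left out r ran from 0.909 to 0.968. With the estimated reads of each library as a covariate r was 0.898 with an adjusted p = 0.0562 by exact permutation, a miss of the threshold. The estimated reads themselves had r = 0.555 with Dusp5 and r = 0.570 with Dusp6 (exact permutation p = 0.162 and 0.139, adjusted p = 0.594 for both over 40 relations with depth and marker lists), and rho = 0.515 and 0.590 (exact permutation p = 0.193 and 0.134, adjusted p = 0.571 and 0.547). With Dusp1 they had r = 0.665 and rho = 0.770 (exact permutation p = 0.164 and 0.0716, adjusted p = 0.594 and 0.477). With Dusp4 the relation ran the other way, at r = -0.695 and rho = -0.673 (exact permutation p = 0.0160 and 0.0516, adjusted p = 0.319 and 0.461). For the other 6 genes r lay between -0.335 (Dusp16) and 0.535 (Dusp10). Without the 2 libraries farthest from the median depth r was 0.409 for Dusp5, 0.312 for Dusp6, 0.569 for Dusp1 and -0.547 for Dusp4. The part of depth in the pair's relation was tested only by that covariate.

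**Figure D4:**
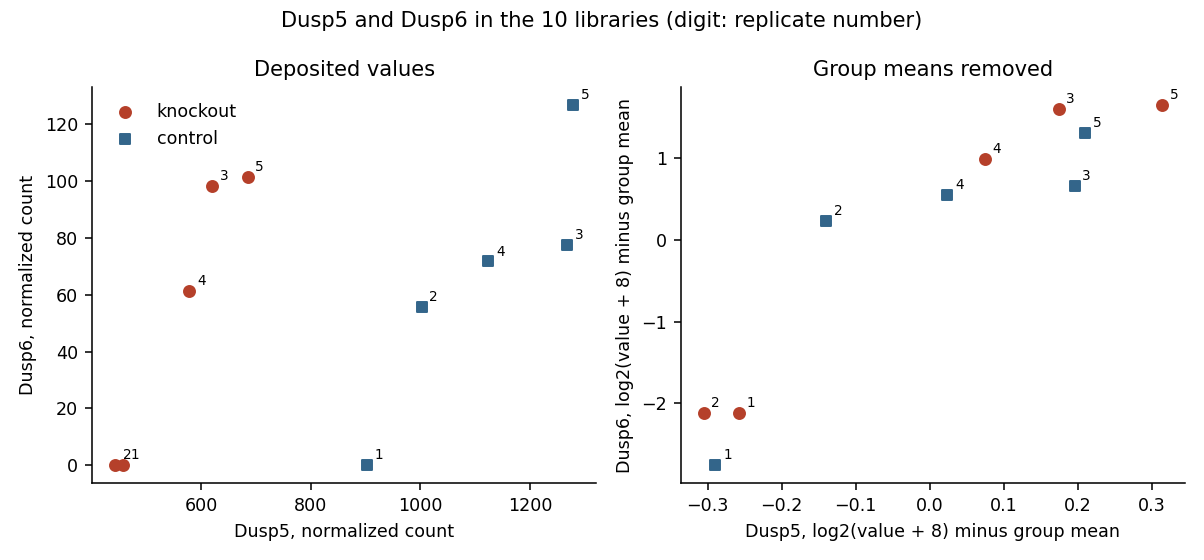
Dusp6 against Dusp5 in each library, as normalized counts (left) and as log2(value + 8) minus the group mean (right), with knockouts as red circles, controls as blue squares and the replicate number beside each. Knockouts lie to the left on the Dusp5 axis of the left panel. With the group means removed the 2 genes rise together over the 10 libraries (r = 0.930), with the 3 at a Dusp6 value of 0 apart from the other 7. Over those 7 alone r was 0.831 (exact permutation p = 0.0625).

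Of the other 44 pairs none passed the adjusted threshold by the exact permutation test, and 1 of them, Dusp6 with Spry2, had an unadjusted p under 0.05 (r = -0.687, exact permutation p = 0.0446, adjusted p = 0.612; rho = -0.693, adjusted p = 0.516). Dusp5 and Dusp1, the 2 genes chosen together, had r = 0.627 (exact permutation p = 0.109, adjusted p = 0.612) and rho = 0.564 (exact permutation p = 0.154, adjusted p = 0.581). That r was 0.326 without the 2 libraries farthest from the median of Dusp1. Of all 45 pairs 19 had r above 0 and 26 below, with a median of -0.182. Spry2 and Spred1 had negative r with Dusp5 (r = -0.707 and r = -0.637, adjusted p = 0.612 for both by exact permutation; rho = -0.758 and -0.661, adjusted p = 0.516 for both). These values come from the same 10 libraries and share their depth.

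Among the 6930 other tested genes with a mean normalized count of at least 100, those whose pattern within groups was most like Dusp5 over the 10 libraries were Pdx1 (r = 0.951), Psma1 (0.940), Arc (0.923), Arhgef18 (0.918) and Rragc (0.911). Pdx1 encodes the β cell transcription factor whose promoter also drives the Cre, Psma1 a proteasome subunit, and Arc a neuronal activity-regulated protein. The early response genes were spread over the ranking. Jun (0.855, rank 25), Btg2 (0.839, rank 33), Junb (0.803, rank 54), Egr1 (0.796, rank 60), Fosb (0.761, rank 100) and Nr4a1 (0.744, rank 125) stood near the top. Fos (0.601, rank 423), Atf3 (0.571, rank 510) and Ier2 (0.471, rank 937) came after them, and Zfp36 (-0.179, rank 4668) and Srf (-0.479, rank 6155) were below 0. For Srf this was so while its knockout mean, like that of Dusp5, was below its control mean. The patterns most like Dusp1 were those of the sodium leak channel gene Nalcn (r = 0.988), Slc35a1 (0.921), Pkhd1 (0.920), Tmem106b (0.908) and Bbs9 (0.905). Dusp5 was in rank 327 of that list. The highest of so many r values are large by selection, so these are descriptions with no test.

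Genes of dissociation and stress form a list that holds none of the 10 members. All 20 were in the table, and their summed normalized count was 23157.1 to 50485.8 in knockouts and 29574.6 to 64991.5 in controls. Their mean log2 value within groups had r = 0.756 with Dusp5 (exact permutation p = 0.0253, adjusted p = 0.337 over the 40 relations) and rho = 0.746 (exact permutation p = 0.0301, adjusted p = 0.461). With Dusp6 r was 0.641 and rho 0.711 (exact permutation p = 0.0604 and 0.0360, adjusted p = 0.483 and 0.461), and with Dusp1 r was 0.414 and rho 0.333 (exact permutation p = 0.332 and 0.422, adjusted p = 0.594 and 0.704). None of the 40 relations passed after adjustment, against 3 with an unadjusted p under 0.05 for r by exact permutation. In the stress list 17 of the 20 genes had a log2 difference below 0, against 52.4% of all genes tested. The median was -0.51, against -0.03 over all genes tested. Egr1, Fos, Btg2, Ier2 and Ier3 are also in the list of ERK-induced transcripts given below, so the 2 lists are not separate, and both were chosen with earlier results known. Without the 2 libraries farthest from the list's median, r was 0.758 for Dusp5, 0.771 for Dusp6 and 0.070 for Dusp1. Ier3 was the single gene of this list at 0 in any library. The part of handling stress in the Dusp5 difference was not tested.

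Alpha cell markers, 7 of 7 in the table, had summed counts of 67954.6 to 104888.5 in knockouts and 76858.2 to 106664.6 in controls. Of the cell type lists they had the highest r with Dusp6 and with Dusp5 over all 10 libraries. With Dusp6 r was 0.892 and rho 0.675 (exact permutation p = 0.0149 and 0.0576, adjusted p = 0.319 and 0.461). With Dusp5 r was 0.716 and rho 0.552 (exact permutation p = 0.0516 and 0.137, adjusted p = 0.483 and 0.547). Without the 2 libraries farthest from the median of these markers r was 0.783 for Dusp6 and 0.501 for Dusp5. Without the 2 farthest of their own, β cell markers had r = 0.827 with Dusp6 and r = 0.849 with Dusp5, so the order of the lists changed. By rho the alpha and β cell lists were equal for Dusp5, at 0.552. Stromal markers had the highest r with Dusp1 among the cell type lists, 0.572, with rho = 0.503 (exact permutation p = 0.239 and 0.231, adjusted p = 0.594 and 0.571), and r was 0.310 without the 2 farthest libraries. There too the order changed. Without the 2 farthest libraries of each list, r with Dusp1 was 0.831 for delta and PP cell markers and 0.740 for β cell markers. The part of cell makeup in these relations was not tested.

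Acinar markers had a summed count of 33562.1 to 92038.5 in knockouts and 22812.3 to 294750.9 in controls, with all 18 genes in the table and Prss1, Ptf1a and Rbpjl at 0 in at least 1 library. The ranges overlapped only through control 2, the lowest of all libraries, as the other controls held 96020.3 or more. All 16 acinar genes tested had a log2 difference below 0, against 52.4% of all genes tested. Their median was -0.94, against -0.03 over all genes tested. None of them passed the adjusted threshold by limma (adjusted p of 0.942 or more). Within groups the acinar markers had r = 0.337 with Dusp5 and r = 0.368 with Dusp1 (exact permutation p = 0.341 and 0.116, adjusted p = 0.594 for both), and rho was 0.212 and 0.588 (exact permutation p = 0.552 and 0.0422, adjusted p = 0.789 and 0.461). With them as a covariate the Dusp5 difference was -0.92. In whole islets, fewer cells of a type and less RNA per cell cannot be told apart. The summed endothelial markers were 2823.1 to 3629.9 in knockouts and 2383.4 to 3009.1 in controls, and the summed ductal markers 6233.8 to 8129.7 and 7970.6 to 9300.1.

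The rest of the ERK pathway was taken from lists of 133 genes, of which 127 were in the table and 102 were tested. None passed an adjusted p under 0.05 by limma, and none did among all 11711 genes (0% called). At an unadjusted p under 0.05 by limma, 3 of the 102 were higher and 5 lower, against 2.36% and 2.66% of all genes tested. Among ligands, 8 of 18 were tested. Fgf1, a fibroblast growth factor noticed after its values were seen, had 208.1, 82.1, 50.8, 167.4 and 173.6 normalized counts in knockouts, against 18.6 to 54.2 in controls. All knockouts but knockout 3 lay above every control, and the log2 difference was 1.84 ± 0.59 (SE, adjusted p = 0.942 by limma). The more abundant ligand genes Vegfa, Pdgfa and Hbegf had log2 differences of -0.25, -0.14 and -0.23 (adjusted p = 0.942, 0.978 and 0.971 by limma).

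Receptor tyrosine kinase genes had 3 of 12 tested members above 0 and 9 below, with a median of -0.25. Igf1r, the receptor of insulin-like growth factor, averaged 718 ± 328 in knockouts and 811 ± 131 in controls, and Egfr 327 ± 315 and 332 ± 299 (SD, n = 5 each). Kdr, the endothelial receptor of VEGF, had 637.1 to 767.1 in knockouts and 471.1 to 621.5 in controls. It is the 1 receptor gene with every knockout above every control, as were 0.435% of all genes tested, and its log2 difference was 0.37 ± 0.22 (SE, adjusted p = 0.942 by limma). Kdr is also in the endothelial marker list, where 8 of 9 genes were above 0, against 5569 of all 11711 genes tested. Flt1, which is in both lists too, had a log2 difference of 0.04 (adjusted p = 0.996 by limma). The part of cell makeup in the Kdr difference was not tested.

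In the ERK cascade itself 29 of 32 genes were tested, with 12 above 0, 17 below and a median of -0.06. Mapk3, which encodes the kinase ERK1, averaged 340 ± 208 in knockouts and 272 ± 76.7 in controls (SD, n = 5 each). Map2k1, which encodes the ERK kinase MEK1, was 357 ± 129 in knockouts and 204 ± 76.2 in controls, a log2 difference of 0.81 ± 0.37 (SE, adjusted p = 0.942 by limma). Rasgrf1, a calcium-responsive activator of Ras, was 987 ± 246 in knockouts and 1363 ± 204 in controls, and Braf 1041 ± 314 and 1387 ± 238, with log2 differences of -0.48 and -0.45 (adjusted p = 0.942 for both by limma).

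Transcripts that ERK induces elsewhere had 5 of 20 tested members above 0 and 15 below, with a median of -0.40, against -0.03 over all genes. Its low early genes, such as Egr1 and Srf, were known when the list was chosen, so it is no separate evidence. The cyclin gene Ccnd1 was at a log2 difference of -0.00, the ETS factor gene Etv5 at 0.36 and Phlda1 at 0.04 (adjusted p = 1, 0.966 and 0.997 by limma). Etv4 did not reach the filter. Srf had 580.6 to 732.3 normalized counts in knockouts and 874.8 to 1307.4 in controls, with no overlap and a log2 difference of -0.61 ± 0.20 (SE, adjusted p = 0.942 by limma). Srf is the 1 of the 102 tested pathway genes with every knockout below every control, as were 0.427% of all genes tested. Egr1 had 1239.1 to 3472.9 in knockouts and 1890.1 to 4553.1 in controls.

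The other dual-specificity phosphatases had 11 of 16 members tested, 5 above 0 and 6 below, with a median of -0.04. Dusp18 had 207.4 to 447.3 normalized counts in knockouts and 350.5 to 694.0 in controls, a log2 difference of -0.67 ± 0.30 (SE, adjusted p = 0.942 by limma). Dusp7, a cytoplasmic ERK phosphatase related to Dusp6, was 78.4 ± 39.0 in knockouts and 165 ± 93.1 in controls, and Dusp14 was 86.0 ± 21.0 and 40.6 ± 31.1 (SD, n = 5 each, adjusted p = 0.942 for both by limma). Of the other Sprouty and Spred genes, Spry1, Spred2 and Spred3 had log2 differences of -1.09, -0.56 and -0.48 (adjusted p = 0.942, 0.942 and 0.971 by limma), with Spry1 listed at 0 in knockouts 1, 2 and 4. In the JNK and p38 cascade 19 of 23 genes were tested, with a median of 0.09. Mapk14, which encodes p38α, had 240.8 to 607.1 in knockouts and 119.1 to 232.8 in controls, a log2 difference of 0.79 ± 0.35 (SE, adjusted p = 0.942 by limma). Mapk14 and Kdr are the 2 of the 102 tested pathway genes with every knockout above every control, as were 0.435% of all genes tested. The JNK gene Mapk8 was 247 ± 75.0 in knockouts and 299 ± 128 in controls (SD, n = 5 each).

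**Figure D5:**
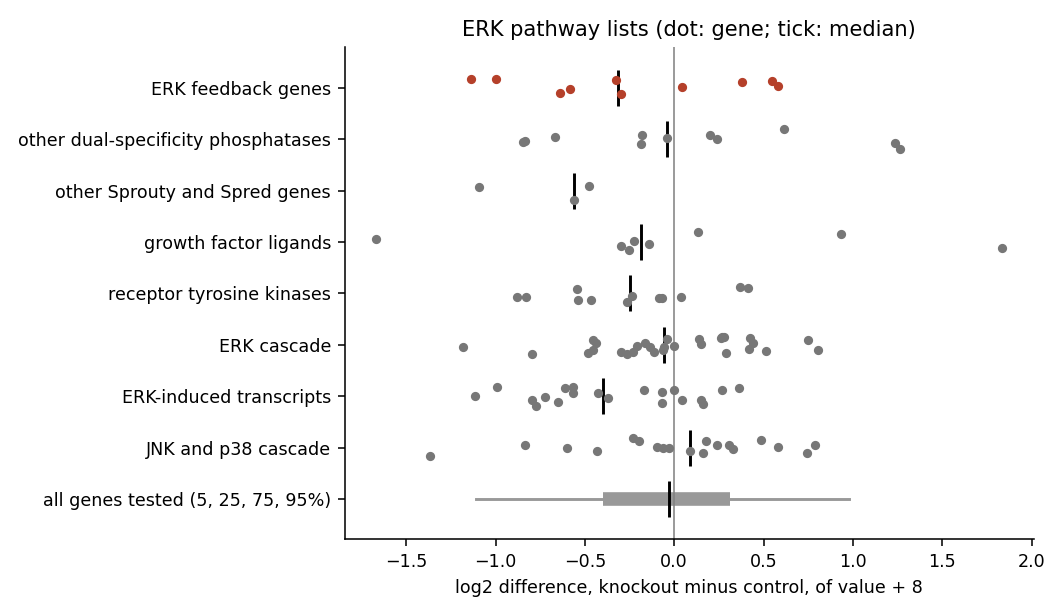
Log2 difference, knockout minus control, of value + 8 (horizontal axis) for each tested gene of the feedback list (red) and of 7 other ERK pathway lists (grey), with a tick at each median, above the range of all 11711 genes tested (thin line 5 to 95%, thick line 25 to 75%). The medians are -0.31 for the feedback genes, -0.40 for the ERK-induced transcripts and -0.03 for all genes.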

How the data were processed

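Ribosomal RNA-depleted islet RNA was sequenced from 10 libraries, 5 knockout and 5 control, with a stranded random-primed kit, per the labels' protocols. Of tools, the submitters' processing notes list STAR (2.4.0.1), HTSeq and DESeq2, with no roles. For the build and annotation, the sources used here give no name. The authors deposited normalized counts per gene, a signal unit, in 17946 rows. A row without a name (0.00774% to 0.0251% of a library) was left out, and 23 names look like dates. Only 22.6% to 33.6% of values above 0 were whole multiples (within 0.01) of a library's commonest low value, so reads were not recovered, depth is an estimate and no count model was used. The authors' deposited comparison gives log2 fold changes, a test score and p-values.

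The members and all lists were chosen with earlier results of these data known. Values were taken as log2(value + 8), which understates changes of low genes. The 11711 genes with at least 10 in at least 5 libraries entered limma (3.58.1, R 4.3.3) (mean-variance trend, robust, Benjamini-Hochberg at 0.05). Alternatives used total, upper-quartile and trimmed-mean (TMM) scaling, other pseudocounts and filters, an acinar covariate and fewer libraries. Correlations within groups used exact permutation of libraries within each group (Python 3.11.15, numpy 2.4.6), adjusted over 45 pairs or 40 relations. Both steps were tested on simulated data. The genes named from other lists were a preset choice of 22, the 3 most abundant of each list and the 5 most alike in pattern. Fgf1, Igf2, Ins2 and, in the likeness ranking, the early response genes were added after their values were seen. Positions are from GENCODE M21 on GRCm38, and promoter sequences from RefSeq on GRCm38.p6, with 8 of 10 members matched. Replicates are numbered in deposit order and pair no samples.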

Additional observations from a re-analysis of the deposited data

Results flagged for a closer look

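Dusp10 in knockout 1, at 204.1 normalized counts, stood apart from the other 4 knockouts, which lay between 452.9 and 503.2. Its gap to the nearest was 0.832 of the group's range, above the 95% limit for 5 samples. Knockout 1 was the shallowest library, where this value stood for an estimated 58 reads. Chance gives a gap past that limit in about 1 of 20 groups. The same check was made in both groups for each of the 10 genes, Grk5 and Esr1, and flagged no other value.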

How the results depend on the processing

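The 10 log2 differences moved by less than 1 SD between libraries in all 200 recomputed values. That SD is each gene's own within groups, so it gives wide room to variable genes. Dusp6 ran from -1.33 to 0.46, Spry2 from -1.26 to 0.16 and Spred1 from -0.04 to 1.02. Signs turned for Spry4 (6 of 20 alternatives), Spry2 (2), Dusp6 (1) and Spred1 (1). The count of genes past the adjusted threshold by limma over all genes was 0, and 1 (Esr1) without controls 2 and 5 and 4 (Esr1, Herc4, Amy2a1 and Chd9) without controls 2, 3 and 5; with single libraries left out it was 0 to 1, the 1 being Ppp4r1l-ps without control 1. Between 409 and 745 genes had an unadjusted p under 0.05 by limma over these settings. The other ERK pathway genes past the threshold were 0 in all 22 alternatives, with single libraries left out 0 to 0, and 3 to 11 at an unadjusted p under 0.05. The 1 pair of members past the threshold remained 1 with any single library left out, and was 0 without controls 2 and 5 and 0 without controls 2, 3 and 5, where the smallest adjusted p for 1 pair is 0.0625 and 0.188, so those fits could not pass. The count was also 0 with the estimated reads covariate, added after the data were seen. No paired analysis was possible because the labels give no replicate numbers shared by the groups. Dusp6 was listed at 0 in 3 libraries and Spry2 in 1. Their values above 0 stood for an estimated 26 to 186 reads (Dusp6) and 2 to 98 reads (Spry2). Dusp6 was at 0 in control 1, with 4712070 estimated reads, and above 0 in knockout 4, with 2715703. The reason for the zeros was not tested.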

Other observations

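Fgf1 in the growth factor list had a higher mean in knockouts, 136 ± 66.7, than in controls, 30.4 ± 15.3 (SD, n = 5 each), with 4 of 5 knockouts above every control. Igf2, the insulin-like growth factor gene, was 7.39 ± 7.93 in knockouts and 57.8 ± 77.1 in controls, where control 2 alone held 194.4. Neither passed the adjusted threshold by limma (adjusted p = 0.942 for both).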
